A study of Homo sapiens with 9 samples.

Results

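Major histocompatibility complex (MHC) class I antigen presentation was followed through 9 genes: HLA-B, HLA-C, HLA-E, B2M, TAP1, TAP2, PSMB8, PSMB9 and NLRC5. Symbols came from the platform annotation, or from RefSeq where the gene ID matched. The genes were taken as every probe set whose only symbol was 1 of these. This found 21 probe sets among 54613 tested, and all 9 genes among the 19775 genes with a probe set of their own. No probe set (0) named a member together with another gene.

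The cells were HuCCT1, an established human line of cholangiocarcinoma, which is cancer of the bile duct epithelium, and their transcripts were measured on 9 single-colour microarrays. The empty vector group has 4 arrays, and the group transfected to express YAPS127A has 5. This is a form of the transcriptional co-activator YAP1 that is always active, because it lacks a serine through which Hippo pathway kinases hold the protein in the cytoplasm. The groups share the cell line and the medium, with fetal bovine serum, and no added cytokine is mentioned in the labels. The labels do not give the time after transfection, whether expression was stable, or whether samples of a group came from separate cultures. The p-values therefore set a group difference only against the spread among these samples, and that spread may be technical.

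Class I molecules show peptides from inside the cell to cytotoxic T cells and natural killer cells. The proteasome cuts proteins into peptides, the TAP1 and TAP2 transporter carries them into the endoplasmic reticulum, and there they are loaded on a heavy chain (such as HLA-B, HLA-C or HLA-E) held by B2M, the shared light chain. PSMB8 and PSMB9 are catalytic subunits of the immunoproteasome, an interferon-induced form that favours peptides suited to class I. NLRC5 is the transactivator that acts at the promoters of these genes. Interferon gamma, in part through IRF1, and NF-kB are well-known inducers of the whole set. Loss of this machinery is a known way in which carcinomas escape T cells.

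The regulatory letters near the start of these genes are shown first, since class I regulation is described through them. The sequences come from RefSeq promoter windows on GRCh38.p14, which held 7 of the 9 members (HLA-E and NLRC5 had none). The 250 bases before each start were searched. Capitals mark matches to an NF-kB pattern (GGGA, any base, T, any 2 bases, CC), a double interferon response pattern (GAAA, any 2 bases, GAAA) and AAGTGAAA, these 3 on both strands. They also mark TGACG followed by ATTGG after 15 to 25 bases on the strand of the gene, the letters of the X2 and Y boxes of class I promoters. Each line gives the gene, its strand and place, and the stretch from 5′ to 3′.
HLA-B, minus strand, chr6:31357251-31357361: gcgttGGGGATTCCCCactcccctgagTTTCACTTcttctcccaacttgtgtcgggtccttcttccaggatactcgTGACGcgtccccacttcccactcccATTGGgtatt
HLA-C, minus strand, chr6:31272163-31272269: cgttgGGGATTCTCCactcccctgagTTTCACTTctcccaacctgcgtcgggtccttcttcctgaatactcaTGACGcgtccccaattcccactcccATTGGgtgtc
B2M, plus strand, chr15:44711368-44711477: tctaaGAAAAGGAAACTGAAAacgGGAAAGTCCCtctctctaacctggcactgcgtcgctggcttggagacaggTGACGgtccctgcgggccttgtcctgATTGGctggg
TAP1, minus strand, chr6:32853762-32853843: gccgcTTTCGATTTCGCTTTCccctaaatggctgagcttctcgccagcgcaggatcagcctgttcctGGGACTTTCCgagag
TAP2, minus strand, chr6:32838783-32838802: gaagcGAAAGCGAAAgctgc
HLA-B, HLA-C and B2M held the TGACG and ATTGG pair, with 20, 20 and 21 bases between its parts, as did 0.219% of all 35116 windows. The NF-kB pattern was in the windows of HLA-B, HLA-C, B2M and TAP1 (4.46% of all windows). The double GAAA pattern was in those of B2M, TAP1 and TAP2 (3.02%), with overlapping copies in B2M and TAP1, and AAGTGAAA in those of HLA-B and HLA-C (1.37%). The windows of PSMB8 and PSMB9 and a further window of TAP1 had no match, which says only that these letters are not in these windows. A match is a description and was not tested as a binding site.

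Most of the class I machinery differed little between the groups. With each gene read at its brightest probe set, HLA-B and NLRC5 rose in YAPS127A cells, no member fell, and 7 of 9 did not pass the test (limma, Benjamini-Hochberg adjusted p under 0.05). This is 22.2% of the members, beside 28.7% of all genes called in either direction and 14.5% called higher. All 9 members were brighter than the median probe set, and 40.7% of the genes that bright were called. At the brightest probe set the groups did not overlap for HLA-B, TAP2 and NLRC5, beside 28.3% of all genes. Signals of 8 members lay higher with YAPS127A, and the median log2 difference (YAPS127A minus empty vector) was +0.14, against 0.00 over all genes. The median size of the difference was 0.14 for the members, 0.13 over all genes and 0.19 over those brighter than the median. For the 7 members that did not pass, no 95% interval of the difference (unadjusted) at the brightest probe set reached beyond 0.32, which is 1.25-fold. At other probe sets the intervals reached further, to 0.40 for HLA-C and to -0.48 at a dim probe set of TAP2. By probe set, 3 of 21 passed (14.3%), beside 23.9% of all probe sets and 38.5% of those above the median signal. The groups did not overlap at 7 of 21, each with YAPS127A higher, beside 22.3% of all probe sets without overlap in either direction and 11.2% with YAPS127A higher.

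**Figure D1:**
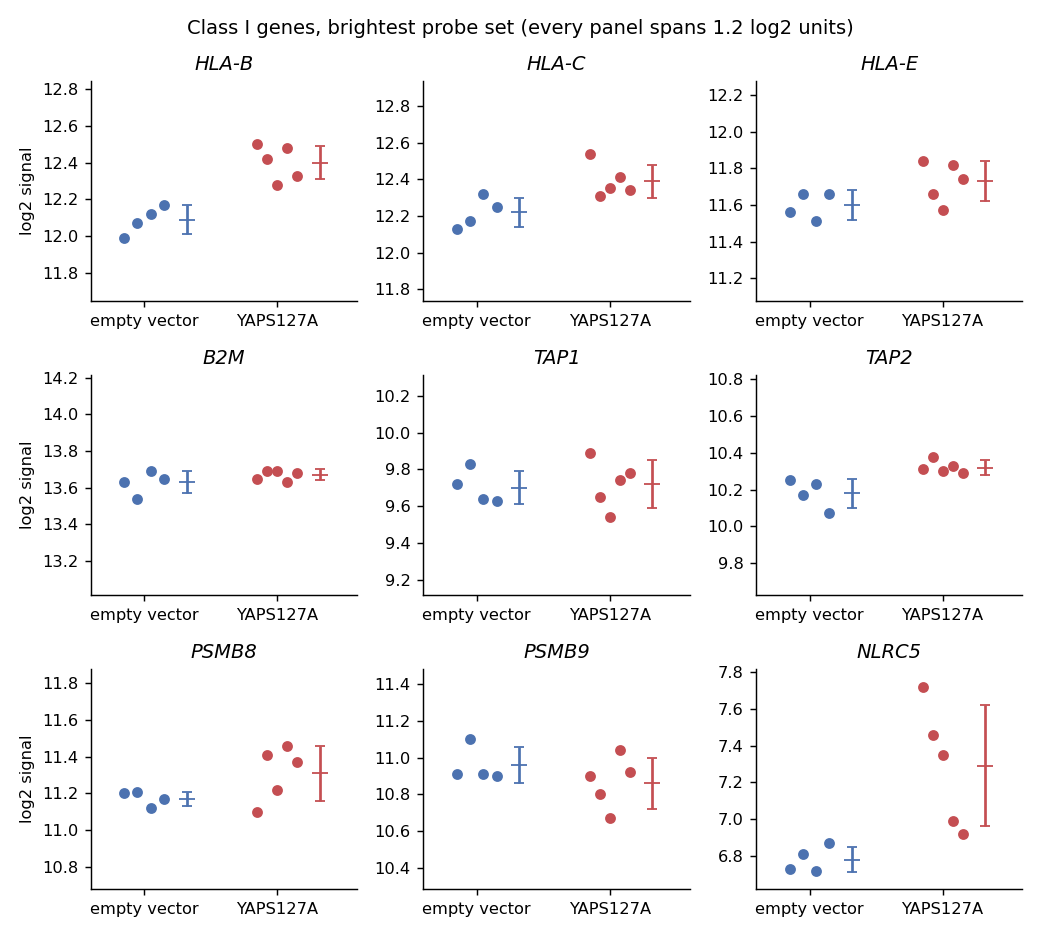
Log2 signal of each class I gene at its brightest probe set on every array (points), with mean and SD beside them, for 4 empty vector and 5 YAPS127A arrays; every panel spans the same log2 range. The groups are apart for HLA-B, TAP2 and NLRC5 and overlap for the other 6 genes, and NLRC5 with YAPS127A is the most spread group, from 6.92 to 7.72.

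The classical heavy chains lay higher with YAPS127A by small amounts. HLA-B, which presents peptides to CD8 T cells, had log2 signals of 11.99, 12.07, 12.12 and 12.17 with the empty vector and 12.50, 12.42, 12.28, 12.48 and 12.33 with YAPS127A. Every YAPS127A array was above every empty vector array. The difference was 0.31 (SE 0.07), or 1.24-fold with a 95% interval of 1.12 to 1.38 (limma, adjusted p = 0.0057). The other probe sets of HLA-B gave 0.26 (adjusted p = 0.0338) and 0.24 (adjusted p = 0.0519), also without overlap between the groups. HLA-B kept its direction and call under 19 of 20 alternatives, with differences of 0.25 to 0.34 and limma adjusted p-values of 0.000859 to 0.0299. The exception, in which the median of the 10 nearest genes is subtracted, turned it to -0.20 (adjusted p = 0.0399) and is described with the neighbours.

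HLA-C, a further classical chain and the main class I ligand of killer cell receptors, had signals of 12.13, 12.17, 12.32 and 12.25 with the empty vector and 12.54, 12.31, 12.35, 12.41 and 12.34 with YAPS127A. The lowest YAPS127A array lay just under the highest empty vector array, so the groups touched. The difference was 0.17 (SE 0.07, interval 0.02 to 0.32) and did not pass (limma, adjusted p = 0.105). All 4 probe sets of HLA-C were higher, by 0.15 to 0.23, and at 2 of them the groups did not overlap. The mean over these probe sets passed (0.18, limma adjusted p = 0.0269), as did the brightest one with trend and robust eBayes (adjusted p = 0.0392) or with the actin gap described below as a covariate (0.21, adjusted p = 0.0209). Whether HLA-B and HLA-C differed in their response was not tested, and their intervals overlap. All 3 probe sets of HLA-B and all 4 of HLA-C carry the _x_ of the array maker, which marks probes that can also match related transcripts. Their signals can therefore mix class I genes, and the alleles of the cell line need not match the probes.

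HLA-E, the nonclassical chain that shows leader peptides of other class I chains to natural killer cells, has 1 probe set without that mark. There its signals were 11.56, 11.66, 11.51 and 11.66 with the empty vector and 11.84, 11.66, 11.57, 11.82 and 11.74 with YAPS127A. The groups overlapped, and the difference of 0.13 (SE 0.07, interval -0.03 to 0.29) did not pass (limma, adjusted p = 0.262). The other probe sets gave 0.08 and 0.12 and did not pass.

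B2M, the light chain without which no class I molecule is stable, gave 13.63, 13.54, 13.69 and 13.65 with the empty vector and 13.65, 13.69, 13.69, 13.63 and 13.68 with YAPS127A. The groups lay on top of each other. The difference was 0.04 (SE 0.06), with an interval of -0.08 to 0.17 (limma, adjusted p = 0.685). The range corresponds to 0.943-fold to 1.12-fold. A second bright probe set gave 0.08 (adjusted p = 0.389), and a dim one, whose mean lies below the median of all probe sets, gave -0.03 (adjusted p = 0.851).

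**Figure D2:**
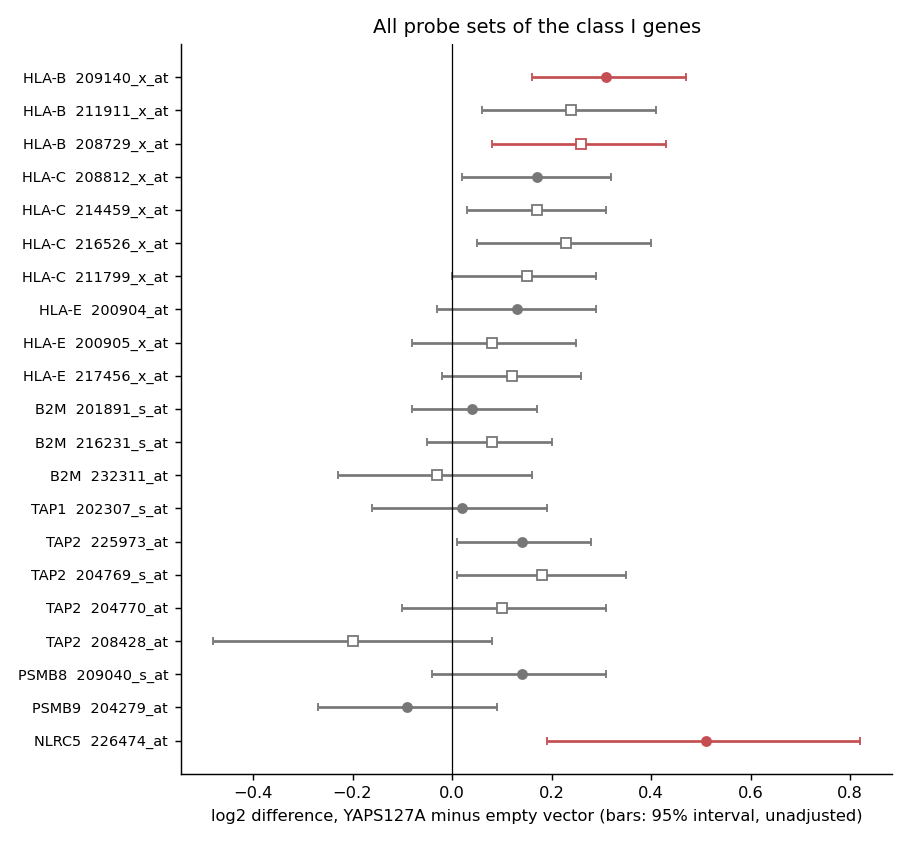
Log2 difference, YAPS127A minus empty vector, with its unadjusted 95% interval for all 21 probe sets of the class I genes; filled circles are the brightest probe set of a gene, open squares the others, and red marks an adjusted p under 0.05. HLA-B and HLA-C lie above 0 at every probe set, B2M and TAP1 lie close to 0, and NLRC5 has the widest interval, 0.19 to 0.82.

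The peptide transporter gave no call. TAP1 had signals of 9.72, 9.83, 9.64 and 9.63 with the empty vector and 9.89, 9.65, 9.54, 9.74 and 9.78 with YAPS127A, and the groups overlapped over nearly their whole range. Its difference was 0.02 (SE 0.08, interval -0.16 to 0.19; limma, adjusted p = 0.926). TAP2, its partner subunit, had signals of 10.25, 10.17, 10.23 and 10.07 with the empty vector and 10.31, 10.38, 10.30, 10.33 and 10.29 with YAPS127A. Every YAPS127A array was higher here, but the difference of 0.14 (SE 0.06, interval 0.01 to 0.28) did not pass (limma, adjusted p = 0.113) under any of 21 alternatives (adjusted p = 0.0542 to 0.572). The other probe sets of TAP2 differed by 0.18, 0.10 and -0.20 and did not pass, the last being dim.

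The immunoproteasome subunits likewise gave no call. PSMB8 had signals of 11.20, 11.21, 11.12 and 11.17 with the empty vector and 11.10, 11.41, 11.22, 11.46 and 11.37 with YAPS127A. One array of YAPS127A, replicate 1, lay below all empty vector arrays and the other 4 above them. The difference was 0.14 (SE 0.08, interval -0.04 to 0.31; limma, adjusted p = 0.257). PSMB9 had signals of 10.91, 11.10, 10.91 and 10.90 with the empty vector and 10.90, 10.80, 10.67, 11.04 and 10.92 with YAPS127A. It was the only member with a negative difference, -0.09 (SE 0.08, interval -0.27 to 0.09; limma, adjusted p = 0.502). TAP1 and PSMB9 lie next to each other and are transcribed away from each other, and neither passed.

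NLRC5 rose, with the largest difference among the members. Its single probe set gave 6.73, 6.81, 6.72 and 6.87 with the empty vector and 7.72, 7.46, 7.35, 6.99 and 6.92 with YAPS127A. All 5 YAPS127A arrays were above the empty vector arrays, but replicates 4 and 5 only just. The difference was 0.51 (SE 0.14), or 1.42-fold with an interval of 1.14 to 1.77 (limma, adjusted p = 0.0237). The call was lost without empty vector replicate 1 (0.49, adjusted p = 0.0613), empty vector replicate 3 (0.48, adjusted p = 0.0606), YAPS127A replicate 2 (0.46, adjusted p = 0.0533) or YAPS127A replicate 3 (0.49, adjusted p = 0.0511). The SD with YAPS127A was 0.33, against 0.07 with the empty vector.

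NLRC5 lies on chromosome 16, where the genes around it were higher as a body. Of its 50 nearest measured genes with a signal above the median, 40 rose and 2 fell. Their median, relative to the empty vector mean, was 0.42 ± 0.03 (SD, n = 5) with YAPS127A and 0.00 ± 0.01 (SD, n = 4) with the empty vector, and 21 of the 50 had a larger difference than NLRC5 itself. With that median subtracted on each array NLRC5 differed by 0.09 (SE 0.14) and did not pass (limma, adjusted p = 0.66). The 10 nearest of these genes all rose, by 0.23 to 0.76, and against their median NLRC5 differed by 0.01 (adjusted p = 0.981). The subtraction assumes that a gene follows its neighbours, which was not tested.

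Around HLA-B and HLA-C, on chromosome 6, the result depended on how many neighbours were taken. The 50 neighbours of HLA-B (members left out) had a median of 0.06 ± 0.04 (SD, n = 5) with YAPS127A. Of these 12 rose, 8 fell and 11 had a larger difference than HLA-B, which was higher by 0.25 (SE 0.06, limma adjusted p = 0.00858) once the median was subtracted. HLA-C then differed by 0.10 (adjusted p = 0.283). The genes closest by, however, lay higher: of the 10 nearest, 7 rose, none fell, and 7 had a larger difference than HLA-B. Among them were PSORS1C1 (0.91), HCP5 (0.66) and the NKG2D ligand gene MICB (0.45), while its relative MICA was at 0.01; these were named after their values were seen. The median of the 10 was 0.52 ± 0.05 (SD, n = 5) with YAPS127A and 0.00 ± 0.05 (SD, n = 4) with the empty vector. Against it HLA-B was lower, at -0.20 (SE 0.07, limma adjusted p = 0.0399), and so was HLA-C, at -0.35 (adjusted p = 0.00225). The higher signal of HLA-B thus stood within a short stretch of genes that were higher too, and the window of 10 was chosen after seeing the data. Around HLA-E 14 of 50 neighbours rose and 10 fell, with a median of 0.07. Around TAP1, TAP2, PSMB8 and PSMB9 the medians of 50 with YAPS127A were 0.00 to 0.01, although single neighbours in the TAP1 panel of the plot of genes in order lie from -1.49 to 0.68. Around B2M, on chromosome 15, the median was -0.05, and B2M differed by 0.09 after subtraction (adjusted p = 0.228).

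**Figure D3:**
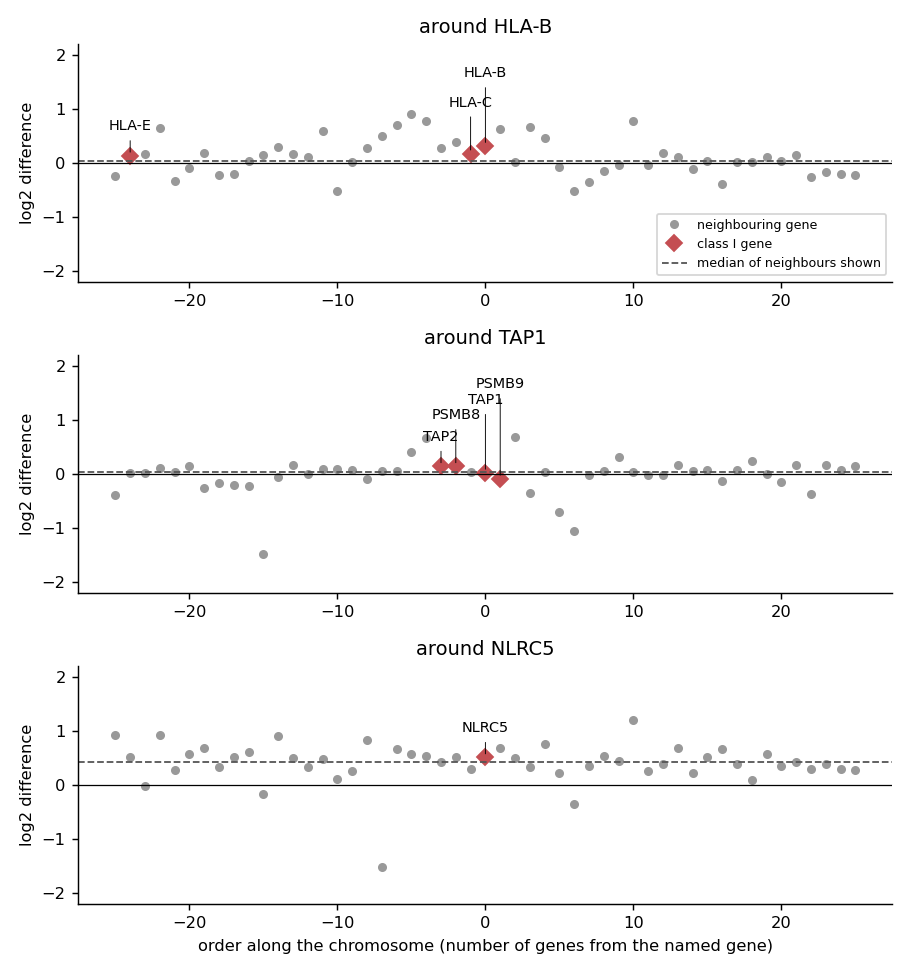
Log2 difference, YAPS127A minus empty vector, of genes with a signal above the median in their order along the chromosome around HLA-B, TAP1 and NLRC5 (25 genes to each side); grey points are neighbours, red diamonds the class I genes and the dashed line the median of the neighbours shown. Most genes around NLRC5 lie above 0, and NLRC5, at 0.51, lies among them; the genes next to HLA-B also lie mostly above 0, up to 0.91, whereas those further off and those around TAP1 lie on both sides of 0.

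Some arrays stood at the edge of their group for several members. YAPS127A replicate 1 was the highest of its group for 5 members and the lowest for 1, and YAPS127A replicate 3 was the lowest for 4. How often this holds for other genes was not counted. The distance between the 3' and 5' actin control probe sets, a sign of RNA or amplification quality, was 0.98 to 1.69 log2 units with the empty vector and 0.89 to 1.58 with YAPS127A. It was largest in empty vector replicate 3 (1.69) and YAPS127A replicate 1 (1.58). Without both arrays HLA-B still passed and NLRC5 did not (0.38, limma adjusted p = 0.0804). Over the 9 arrays TAP1 had a Pearson correlation of 0.68 with PSMB9, 0.67 with HLA-E, 0.24 with HLA-C, 0.20 with HLA-B, 0.12 with NLRC5, 0.04 with TAP2, -0.06 with PSMB8 and -0.55 with B2M. Among 12217 other genes with a signal above the median, those most like TAP1 were GABPB1-AS1 (0.92), ASTE1 (0.92), SLC16A5 (0.91), SFXN2 (0.91) and MCM3 (0.91). As deviations from the group means they were SLC16A5, USP54, SPIRE1, ARRDC1 and MSRB2, each at 0.96. All values of an array share its RNA and its labelling.

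Other genes of the class I pathway were read from 6 lists, of which 69 genes had a probe set of their own. Of these, 8 rose, 11 fell and 50 did not pass, which is 27.5% called beside 28.7% of all genes. Most of them were brighter than the median probe set, and 40.7% of all genes that bright were called. Below the median lay 4 other class I and class I-like genes, 1 gene of transcriptional control and none of the remaining lists. The median difference of the 69 genes was -0.03. Where the genes around a named one moved with it, the value after removal of the median of 50 neighbours is given, and that for the 10 nearest where it changes the call or the sign. By these removals the counts became 11 higher and 16 lower (50 neighbours) and 13 higher and 15 lower (10 nearest). The share of all genes called after either removal was not counted. Counts after removal, here and in the lists below, thus have no background to be set against.

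Peptide trimming genes held the clearest fall. In the list of loading complex and trimming genes 2 of 13 fell, none rose, and the median difference was -0.03. ERAP2, an aminopeptidase that trims peptides in the endoplasmic reticulum, fell from 10.67 ± 0.06 (SD, n = 4) to 9.81 ± 0.10 (SD, n = 5), a difference of -0.85 (SE 0.07, limma adjusted p = 3.4e-06), and 4 of its 5 probe sets were called lower. Its relative ERAP1 fell (-0.39, adjusted p = 0.0226), but at 1 of 5 probe sets only, and the mean over them did not pass (-0.11, adjusted p = 0.292). The call of ERAP1 was also lost without empty vector replicate 2, 3 or 4 (-0.39, -0.38 and -0.36) and after subtraction of its neighbours' median (-0.29, adjusted p = 0.0625). The chaperone tapasin, TAPBP, which bridges TAP and the heavy chain, differed by -0.13 (adjusted p = 0.175), and TPP2, a cytosolic peptidase, by 0.17 (adjusted p = 0.136). With the neighbours' median removed TPP2 was lower (-0.27, adjusted p = 0.0107), as it was against the 10 nearest (-0.63).

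Proteasome genes differed little, and their calls turned on the neighbours. Of 5 genes of the immunoproteasome and its activators, PSME3, a subunit of the nuclear activator, fell (-0.25, limma adjusted p = 0.007) and POMP, the assembly chaperone, rose (0.17, adjusted p = 0.049), with a median of -0.13. PSMB10, the remaining catalytic subunit of the immunoproteasome, named after its value was seen, differed by 0.07 as deposited and did not pass (adjusted p = 0.646). With the neighbours' median removed PSME3 no longer passed (-0.14, adjusted p = 0.0865) and POMP was lower (-0.17, adjusted p = 0.0345). The activator subunit genes PSME4 (-0.14, adjusted p = 0.103) and PSME1 (-0.13, adjusted p = 0.235) did not pass as deposited and were lower after this removal (-0.18, adjusted p = 0.0241, and -0.20, adjusted p = 0.0338). The list then had 4 of 5 genes called, against 2 as deposited, and PSMB10 was among the 4. Compared with the 10 nearest, POMP (-0.16, limma adjusted p = 0.0646) and PSME1 (-0.13, adjusted p = 0.231) did not pass. There 2 genes of the list were called, PSME4 (-0.18, limma adjusted p = 0.0494) and PSMB10. The size and direction of PSMB10 after these removals are not given here. POMP kept its call in 1 of the 9 fits that each left out an array. Both its probe sets were called higher as deposited, but the removals used only the brighter. Over all alternatives its difference ran from -0.17 to 0.52. Of 13 subunits of the standard core, PSMB1 fell (-0.29, adjusted p = 0.00205), PSMA5 rose (0.27, adjusted p = 0.00814) and 11 did not pass, with a median of 0.01. Neither passed with the median of 50 neighbours removed (0.15 and -0.01), where no gene of the list did, and both passed with turned sign against the 10 nearest (0.25 and -0.28), where 5 did. PSMB3, another subunit, was at -0.17 (adjusted p = 0.079). PSMB5, whose place PSMB8 takes in the immunoproteasome, differed by 0.17 (adjusted p = 0.145).

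Among 14 other class I and class I-like genes, 4 rose and 1 fell, with a median of 0.12. With the median of 50 neighbours removed, 11 of the 14 were called, and 10 against the 10 nearest, without a share of all genes beside these counts. PROCR, the endothelial protein C receptor, rose by 0.62 (SE 0.07, limma adjusted p = 7.83e-05), and FCGRT, the heavy chain of the neonatal Fc receptor, which pairs with B2M, by 0.61 (adjusted p = 0.000591). MICB, a stress ligand of the NKG2D receptor of natural killer cells, rose from 11.67 ± 0.07 (SD, n = 4) to 12.12 ± 0.08 (SD, n = 5), a difference of 0.45 (adjusted p = 0.00033). These 3 kept their calls under both removals. MR1, which presents vitamin metabolites and was named after its value was seen, rose by 0.41 (adjusted p = 0.0028) at 1 of 6 probe sets, and the mean over them did not pass (0.10, adjusted p = 0.37). AZGP1 fell (-0.62, adjusted p = 0.00111) at a signal below the median.

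Of 16 genes that control class I transcription, 4 fell and 2 rose, with a median of -0.14. IRF1, the interferon-induced activator of class I promoters, fell from 9.37 ± 0.12 (SD, n = 4) to 8.86 ± 0.14 (SD, n = 5), a difference of -0.51 (SE 0.09, limma adjusted p = 0.00101), at both its probe sets. RFX5, a subunit of the RFX factor that works with NLRC5 at the X box, fell (-0.38, adjusted p = 0.00244), and RFXAP, another subunit, rose (0.38, adjusted p = 0.00476). Both lost their calls with the neighbours' median removed (-0.19, adjusted p = 0.0529, and 0.05, adjusted p = 0.644), as did the Polycomb gene SUZ12 (-0.24, then -0.03). NFYA (-0.36) and IRF9 (0.24), named after their values were seen, complete the counts; NFYA lost its call in 5 and IRF9 in 6 of the 9 fits that each left out an array.

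In interferon gamma signalling 2 of 8 genes fell and none rose, with a median of -0.13. Both were receptor chains. IFNGR1, which binds the cytokine, fell from 11.02 ± 0.06 (SD, n = 4) to 10.40 ± 0.11 (SD, n = 5), a difference of -0.62 (SE 0.07, limma adjusted p = 6.38e-05), and the signalling chain IFNGR2 fell by 0.28 (adjusted p = 0.00483). The neighbours of IFNGR1 lay lower too (-0.37), and after their removal it was at -0.25 (adjusted p = 0.00894). At its probe set without _s_ it did not pass (-0.35, adjusted p = 0.145). Against the 10 nearest genes neither receptor chain passed (-0.15, adjusted p = 0.0999, and -0.13, adjusted p = 0.145). The list had 5 of 8 genes called with 50 neighbours removed and 3 with the 10 nearest, again without a share of all genes beside them. The kinase gene JAK1 differed by 0.17 and did not pass (adjusted p = 0.144), but after removal of its neighbours' median (0.50) it was lower, at -0.34 (adjusted p = 0.00429). The phosphatase gene PTPN2 was at -0.20 and did not pass (adjusted p = 0.137). It was lower with 50 neighbours removed (-0.24, adjusted p = 0.0421) and against the 10 nearest (-0.29, adjusted p = 0.0202).

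**Figure D4:**
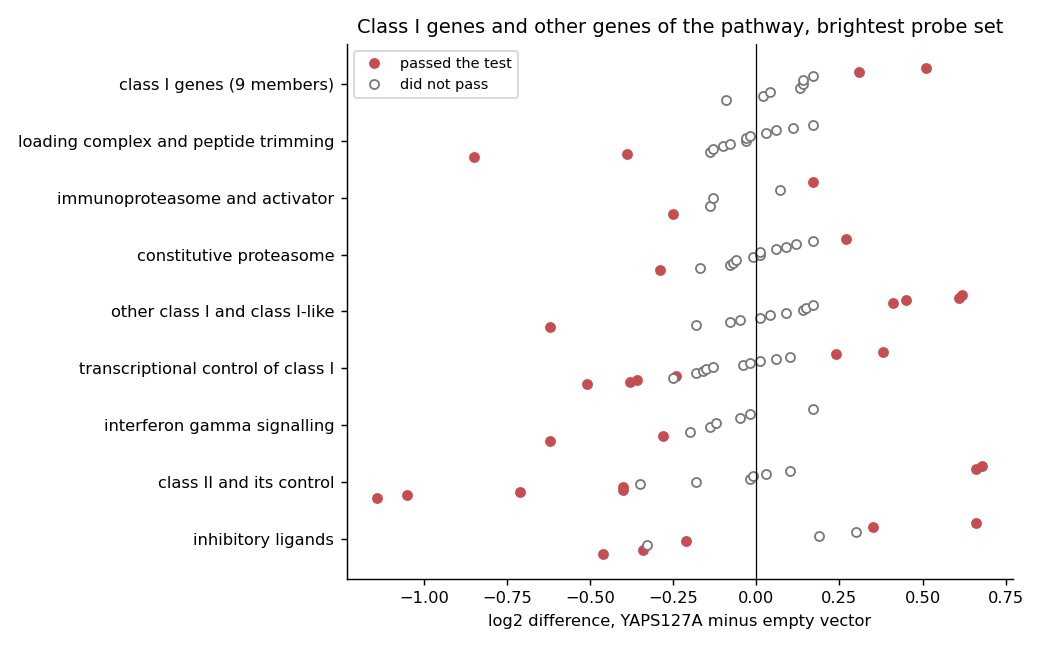
Log2 difference, YAPS127A minus empty vector, of each class I gene and of the genes in 8 lists around it, 1 point per gene at its brightest probe set, filled where the adjusted p was under 0.05. The class I genes lie between -0.09 and 0.51, while genes of other lists lie further from 0 on both sides, such as CTSS (-1.14), HLA-DPB1 (-1.05), ERAP2 (-0.85), HLA-DMA (0.68) and PROCR (0.62).

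The cell type on the label was checked once. All 8 cholangiocyte markers had mean signals of at least 9.81, far above the median of 5.96, with KRT8 and CDH1 called higher and SOX9 lower. Of 7 leukocyte markers, cells that carry much class I, PTPRC had means of 4.05 and 4.03, below the lower quartile of every array (4.24 to 4.27). CD163 (3.97) and CD3E (2.88) had lower empty vector means than PTPRC. Those of ITGAM (5.06), NKG7 (5.63), CD14 (6.19) and LYZ (7.42) were higher, the last 2 above the median of 5.96. The median level of these 7 markers per array was 4.96 to 5.14 with the empty vector and 4.87 to 5.25 with YAPS127A, and LYZ (-2.25) and CD14 (-0.45) fell. Markers of fibroblasts (1 higher, 1 lower of 6), endothelial cells (none of 4) and hepatocytes (none of 4) were mostly dim. In bulk RNA, fewer cells of a type and less RNA per cell cannot be told apart.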

How the data were processed

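The deposited table holds log2 signals of 54675 probe sets on 9 arrays. The scale was judged from the range (1.62 to 14.82), since no header states it; how background was corrected and arrays were normalized is not given in the sources used. Array medians lay between 5.95 and 5.97, so no scaling was added, and 0 columns belonged to other samples. Without the 62 controls 54613 probe sets entered the test; the platform annotation named 1 gene for 41091, several for 1801 and none for 11721, and gene IDs matched RefSeq (GRCh38.p14) for 41037. The RefSeq table gave gene order and, for the matched probe sets, the gene symbol.

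The group difference was fitted with limma 3.58.1 under R 4.3.3 (lmFit, eBayes, no covariate, 11.4 total degrees of freedom) with Benjamini-Hochberg adjustment over all probe sets and a threshold of 0.05. Each gene is read at its brightest probe set over all arrays. Levels carry SDs and differences SEs. The fit was tested on simulated data.

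The members and lists were chosen with earlier results of these data known. Named were all members and, per list, the up to 4 genes with the lowest p-values; genes named beyond this are marked in the text. Likeness to TAP1 was ranked over genes above the median. Alternatives were quantile normalization, median centring, leaving out dim probe sets, trend and robust eBayes, array weights, the replicate block, each array left out, the mean over probe sets, probe sets without _x_ or _s_, and removal of the median of up to 50 neighbours. The actin gap as a covariate and the fit without the array of largest gap in each group, and removal of the median of the 10 nearest neighbours, were added after seeing the data. Figures were drawn with matplotlib 3.10.9.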

Additional observations from a re-analysis of the deposited data

Results flagged for a closer look

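PSMB9 in empty vector replicate 2 stood apart from its group, at 11.10 while the others lay between 10.90 and 10.91. The dim probe set of B2M stood low in YAPS127A replicate 1, at 5.41, while the others lay between 5.68 and 5.75. Of 42 groups checked by Dixon's criterion these 2 were found, and chance flags about 1 in 20.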

How the results depend on the processing

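The count of member genes called was 2. It became 3 (with HLA-C) with trend and robust eBayes, with the actin gap as covariate and with the mean over probe sets. It became 1 with both arrays of the largest actin gap left out, 1 with the neighbours' median removed, 1 of 5 genes when only probe sets without _x_ or _s_ were used (HLA-B and HLA-C then have none), and 1 to 2 with 1 array left out in turn; against the 10 nearest neighbours it was 2, but these were HLA-B and HLA-C, both lower. Of the 21 member probe sets 3 passed; this became 6 without dim probe sets, 7 with trend and robust eBayes, 5 with array weights, 5 with the actin gap as covariate, and 1 to 4 with 1 array left out. The replicate block gave 2 member genes. Same-numbered arrays did not deviate together (correlations -0.461 to 0.0301, and no empty vector array, 0 of 4, matched its own number best), so the numbers are not taken as pairs. Signs turned for TAP1 (-0.0002 with the replicate block, -0.05 without both arrays of the largest gap, -0.03 to 0.06 with 1 array left out), for B2M (-0.03 at its probe set without _s_), and with the neighbours' median removed for TPP2 (-0.27), POMP (-0.17), PSMB1 (0.15), PSMA5 (-0.01), PSMB3 (0.01) and JAK1 (-0.34). Against the 10 nearest neighbours signs turned for HLA-B (-0.20), HLA-C (-0.35), TAP1 (-0.04), TPP2 (-0.63), POMP (-0.16), PSMB1 (0.25), PSMA5 (-0.28), RFXAP (-0.07) and JAK1 (-0.46); HLA-DPB1 was at 0.06 at its probe set without _s_. The cause was not tested. Counts of other pathway genes called ranged from 6 to 13 higher (13 against the 10 nearest) and 8 to 16 lower. With the replicate block the immunoproteasome list went from 2 to 0 called and the transcriptional list from 6 to 3. The planned pseudocount was not run, since the values already are on a log scale. Probe sets below the median signal, the number of arrays and probes shared between HLA genes limit these values.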

Other observations

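Among MHC class II genes calls were frequent, although several genes are dim. Of 13 class II genes and regulators, 5 fell and 2 rose (limma, adjusted p under 0.05), which is 53.8% beside 28.7% of all genes, with a median difference of -0.18; 6 of the 13 lie below the median signal. CTSS, the protease that trims the invariant chain, fell from 9.34 ± 0.22 (SD, n = 4) to 8.21 ± 0.16 (SD, n = 5), a difference of -1.14 (SE 0.11, adjusted p = 1.72e-05), at all 3 probe sets. HLA-DPB1 (-1.05) and HLA-DPA1 (-0.71) fell, HLA-DPB1 at 1 of 2 probe sets. HLA-DMA, which edits class II peptides, rose by 0.68 (adjusted p = 0.000181). Named after their values were seen, the invariant chain gene CD74 (-0.40) and HLA-DRA (-0.40) fell and HLA-DQB1 rose by 0.66. The mean over the probe sets of CD74 did not pass (-0.13, adjusted p = 0.267). Whether class I and class II differed as groups was not tested.

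Of 8 ligands that restrain immune cells, 3 fell and 2 rose, which is 62.5% beside 28.7% of all genes. Of these 8, 1 lies below the median signal, and 40.7% of all genes above it were called. LGALS9, which encodes galectin-9, fell by 0.46 (limma, adjusted p = 0.000676), and CD47, the signal that protects cells from phagocytosis, fell by 0.34 (adjusted p = 0.00233). The gene for PD-L1, CD274, named after its value was seen, fell by 0.21 (adjusted p = 0.0215). VTCN1 rose by 0.66 from a mean of 4.49, below the median signal, and CD276 by 0.35 (adjusted p = 0.0179). The calls of CD274 and CD276 were lost in 4 and 1 of the 9 fits that each left out an array, and those of CD276 and VTCN1 with the median of the 10 nearest neighbours removed (0.12 and 0.45).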
